A study of Mus musculus with 12 samples.

Results

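The data concern H3K27ac regions at gene ends that carried a peak at each of 6 stages of mouse gastrulation. They were chosen by H3K27ac alone: the peaks of the 6 H3K27ac lists were merged wherever they overlapped or touched, and a merged region was kept when it lay within 1 kb of an outer end of a protein-coding gene and held a peak in every list. Of 51619 merged regions, 15181 lay within 1 kb of a gene end and 8354 of these were present at all 6 stages. These 8354 regions are called members below, and a gene end within 1 kb of one is a member end. Since H3K27ac chose the members, their H3K27ac presence, width and fold are given as a description without a test, and the tests given are on H3K4me1, which the choice did not use.

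The samples were cells of C57BL/6 embryos sorted by morphology and profiled with CoBATCH, in which an antibody guides the transposase Tn5 to chromatin with a mark and the DNA there is tagged. The stages were Pre_PS, before the primitive streak (E6.0), ES with an early streak (E6.0, E6.5), MS with a mid streak (E6.0, E7.0), LS with a late streak (E7.0 and E7.25), OB with no allantoic bud (E7.25 and E7.5) and EHF with early head folds (E7.5). No mutation or treatment was named for any group, and the labels state removal of tissue outside the embryo proper for Pre_PS, ES, MS and LS but not for OB and EHF. Each stage and mark had 1 library, given as 1 list of broad peaks, so there was no replicate at any stage and each value carries no spread between samples.

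As background, H3K27ac is acetylation of lysine on histone H3, placed mainly by the related enzymes p300 and CBP at promoters and enhancers in use. H3K4me1 is methylation of another lysine of the same histone. It is best known from enhancers, and at strong promoters it often lies beside the start, where the trimethylated form takes its place. Many vertebrate promoters lie in CpG islands, stretches rich in C and G that keep their CpG pairs, and promoters of genes used in most cells are often of this kind.

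The Pre_PS lists covered the fewest bases for both marks, and for H3K27ac this bears on the membership. The Pre_PS H3K27ac list held 13398 peaks, against 30072 to 39635 in the 5 later lists, and covered 14.3 Mb, against 35.9 to 42.1 Mb. The Pre_PS H3K4me1 list held 36739 peaks, against 35646 to 47849 later, and covered 23.4 Mb, against 39.1 to 51.3 Mb. The number of fragments per library is not given in the sources used here. Among regions near gene ends, 4507 were present at 5 of the 6 stages, and 4483 of these (99.5%) lacked Pre_PS alone. The other stages were each the missing one in 1 to 15 regions. Membership was therefore set largely by the Pre_PS list, and with the 5 later lists alone 12831 regions qualified. In addition, 387 members rested at Pre_PS on peaks with the lowest fold and the weakest p of that list.

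Promoters of 6 members are shown first, as examples of the CpG content and the motifs that are counted over all members below. For each motif, the gene shown had the highest average fold rank among member starts whose promoter held it. The stretches are the 250 bases before the start, from RefSeq sequence of GRCm38 (mm10), read 5′ to 3′ on the strand of the gene. Matches of the motif on either strand are in capitals, except where a match overlaps one already marked, as at Cand1. Osbpl8, a lipid transfer protein (chr10:111164552-111164801, plus strand), is shown for the GC box GGGCGG. Mgat2, an enzyme of N-glycan building in the Golgi (chr12:69183908-69184157, plus strand), is shown for the CCAAT box, searched as ATTGG. Csnk2a1, the catalytic subunit of casein kinase 2 (chr2:152226590-152226839, plus strand), is shown for TATAAA. Lrrc41 (chr4:116075019-116075268, plus strand) is shown for the ETS motif CCGGAAGT. Birc6, a very large inhibitor of apoptosis (chr17:74528045-74528294, plus strand), is shown for the NRF1 motif GCGCATGC. Cand1, a regulator of cullin ubiquitin ligases (chr10:119240056-119240305, minus strand), is shown for the ZBTB33-type element TCTCGCGA.
Osbpl8: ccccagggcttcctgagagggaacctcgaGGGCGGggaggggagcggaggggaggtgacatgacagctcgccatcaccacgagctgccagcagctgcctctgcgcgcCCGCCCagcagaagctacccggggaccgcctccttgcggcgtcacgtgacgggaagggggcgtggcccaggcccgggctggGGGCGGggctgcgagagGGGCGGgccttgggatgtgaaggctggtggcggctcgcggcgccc
Mgat2: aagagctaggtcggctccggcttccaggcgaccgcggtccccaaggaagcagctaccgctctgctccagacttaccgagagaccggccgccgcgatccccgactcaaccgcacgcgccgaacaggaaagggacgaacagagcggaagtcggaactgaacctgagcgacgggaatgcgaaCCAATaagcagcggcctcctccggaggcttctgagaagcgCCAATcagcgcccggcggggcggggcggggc
Csnk2a1: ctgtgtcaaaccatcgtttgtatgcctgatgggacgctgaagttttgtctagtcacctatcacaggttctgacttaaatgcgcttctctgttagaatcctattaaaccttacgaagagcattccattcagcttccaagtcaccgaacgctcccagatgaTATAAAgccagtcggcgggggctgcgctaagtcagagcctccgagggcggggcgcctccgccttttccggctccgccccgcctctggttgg
Lrrc41: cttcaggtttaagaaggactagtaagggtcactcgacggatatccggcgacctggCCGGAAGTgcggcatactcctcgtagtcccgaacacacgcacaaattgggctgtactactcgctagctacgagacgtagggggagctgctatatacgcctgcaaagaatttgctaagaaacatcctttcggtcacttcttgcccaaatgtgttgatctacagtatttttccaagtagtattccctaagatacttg
Birc6: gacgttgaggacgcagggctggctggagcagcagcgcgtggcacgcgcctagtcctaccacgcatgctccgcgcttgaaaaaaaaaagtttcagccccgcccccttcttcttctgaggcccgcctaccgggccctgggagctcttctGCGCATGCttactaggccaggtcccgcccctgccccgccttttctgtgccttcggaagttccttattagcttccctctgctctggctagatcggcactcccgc
Cand1: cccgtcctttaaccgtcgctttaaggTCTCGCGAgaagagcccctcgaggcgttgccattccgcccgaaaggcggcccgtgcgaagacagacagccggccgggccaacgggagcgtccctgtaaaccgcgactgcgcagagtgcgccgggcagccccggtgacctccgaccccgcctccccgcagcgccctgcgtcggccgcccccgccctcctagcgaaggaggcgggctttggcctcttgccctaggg
The CpG content, observed over expected, of the promoters from which these stretches come was 0.727 for Osbpl8, 1.04 for Mgat2, 0.814 for Csnk2a1, 0.933 for Lrrc41, 0.711 for Birc6 and 1.01 for Cand1, all above the threshold of 0.6 used here for a CpG-rich promoter. The stretch of Osbpl8 held 4 GC boxes over both strands, and the TATAAA of Csnk2a1 began 91 bases before the start.

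Members were mainly regions over gene starts. Of the 8354 members, 6333 (75.8%) held a start, 368 (4.41%) a gene's 3′ end and no start, and 1653 (19.8%) only ends of genes for which the strand was not given in the tables used, or such ends with a 3′ end. The gene end lay inside the region in 90.3% of members, against 64.03% of the 6827 gene-end regions with H3K27ac at 1 to 5 stages. Of those 6827 regions, 54.2% held a start and 24.8% a 3′ end alone. Counted by ends, 40.9% of 17274 known starts were member ends, against 8.48% of the 17274 3′ ends of the same genes. A member region held ends of 2 or more genes in 18.7% of cases, so that a member end of a gene can belong to the neighbour's promoter. A start of another gene in the opposite direction within 1 kb was found at 10.3% of member starts, 9.55% of starts with H3K27ac at 1 to 5 stages and 0.788% of starts without H3K27ac. The Wilson intervals of the first pair overlapped (9.62% to 11.0% and 8.67% to 10.5%).

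At the 7065 member starts both marks formed a single hump that leaned into the gene. At the 5 later stages H3K27ac peaks covered 88.5% to 90.0% of member starts at the start itself and at most 91.8% to 92.8%, at 200 or 300 bp downstream. The kilobase downstream of a start held on average 759 to 788 bp of H3K27ac, against 429 to 465 bp in the kilobase upstream. H3K4me1 had nearly the same outline: 89.0% to 90.4% at the start, and 758 to 781 bp downstream against 436 to 464 bp upstream. At Pre_PS both marks were narrower and lower, with 74.8% of member starts covered by H3K27ac and 49.9% by H3K4me1 at the start.

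**Figure D1:**
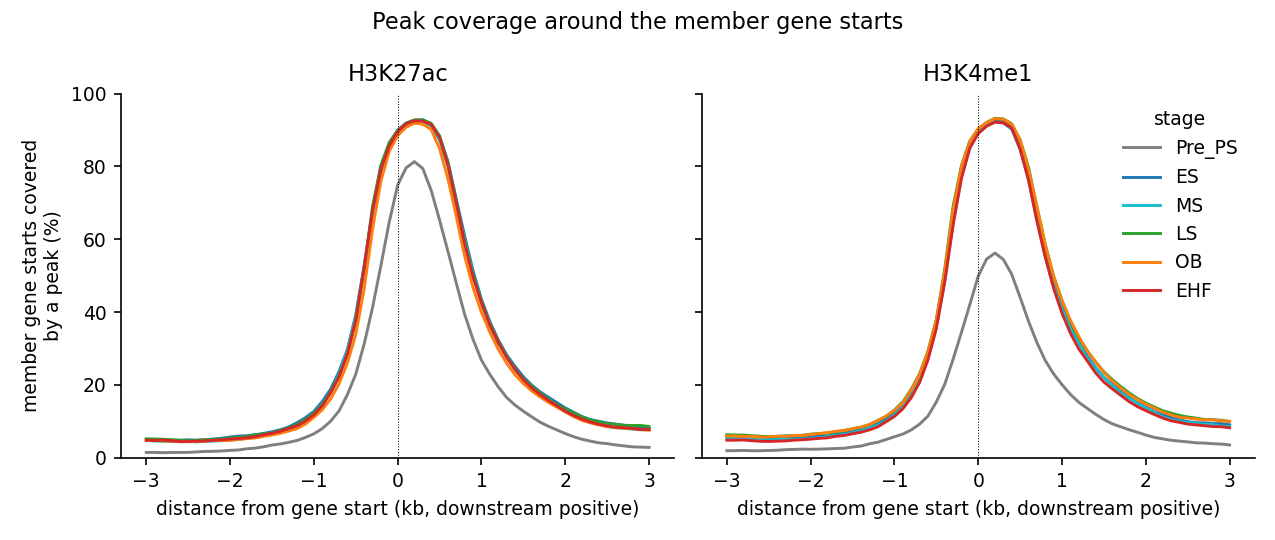
Share of the 7065 member gene starts covered by a peak (vertical axis, percent) against distance from the start (horizontal axis, kb, downstream positive), with 1 line per stage and library, for H3K27ac (left) and H3K4me1 (right). The 5 later stages overlie each other with a maximum of 91.8% to 93.2% at 200 or 300 bp downstream, and the Pre_PS line lies below them for both marks (81.3% and 56.2%).

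The share of genes with a member end differed between chromosomes and was lowest on the X. Over all 21631 protein-coding genes, 9368 (43.3%) had a member end. Among the autosomes the share ran from 35.8% on chromosome 7 to 54.0% on chromosome 15, and it was 17.4% of the 966 genes of the X. The X held 157 member regions (1.88%) and 255 (3.74%) of the gene-end regions at 1 to 5 stages.

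Members were mostly narrow, with a few very wide regions. The merged width ranged from 0.548 kb to 38.6 kb with a median of 1.63 kb, against a median of 0.945 kb for gene-end regions at 1 to 5 stages. Within members the H3K27ac peaks covered a median of 0.984 kb at Pre_PS, against 1.33 to 1.42 kb from ES on. Over the 5 later stages the covered length of a member had a median coefficient of variation of 7.72%, and 28.4% at the 95th percentile. Members held 63.9% of the Pre_PS H3K27ac peaks and 22.0% to 28.5% of the later ones. In bases, they made up 69.7% of the H3K27ac cover of Pre_PS and 37.5% to 43.2% of that of each later stage. Within its list, the median member stood at the 60.1st percentile of fold at Pre_PS and between the 80.4th and 84.9th later.

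The widest member lay at an end of Plec, the gene of the cytoskeletal linker plectin (chr15:76170894-76209542). H3K27ac covered 19.6 kb of it at Pre_PS, 38.3 kb at ES, 34.8 kb at MS, 37.0 kb at LS, 33.1 kb at OB and 29.45 kb at EHF. H3K4me1 covered 17.95 kb at Pre_PS and 33.8 to 37.3 kb later. From ES on both marks lay over most of the region, and Pre_PS was the lowest for each. The next widest, at Pip5k1c, a kinase that makes a membrane phosphoinositide (chr10:81296374-81330548, 34.2 kb), had 4 gene ends within 1 kb. H3K27ac covered 4.70 kb of it at Pre_PS against 26.7 to 32.0 kb later. The region at Lama5, a laminin chain of basement membranes (chr2:180170926-180196774, 25.8 kb), had 1.54 kb at Pre_PS, the least of the 10 widest, and 18.4 to 24.0 kb later. The others of the 10 widest were 17.6 to 19.4 kb wide and lay at Fasn (fatty acid synthase), Stk11 (the kinase LKB1), Mrpl54, Aatk, Zbtb7a, Sphk2 and 2310011J03Rik, with 2.94 to 8.02 kb of H3K27ac at Pre_PS and 11.4 to 18.7 kb later. The region at Sphk2 held 8 gene ends. The nearest gene end was the 3′ end at Pip5k1c, Lama5, Stk11, Aatk and 2310011J03Rik. In all 10 the Pre_PS value was the lowest of the 6.

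The members with the highest average fold rank were instead narrow. The fold is the authors' enrichment of a peak, used here only to rank peaks within a list. Ppp2r5e, a regulatory subunit of protein phosphatase 2A (chr12:75595081-75597077), led with an average percentile of 99.9 and folds of 10.0 at Pre_PS, 29.5 at ES, 26.0 at MS, 41.7 at LS, 35.3 at OB and 40.6 at EHF. Its region was 2.00 kb wide, and H3K27ac covered 1.77 to 1.96 kb of it at every stage, Pre_PS included. Nsd1, an H3K36 methyltransferase (chr13:55209412-55213518), followed with folds of 10.7 at Pre_PS and 22.7 to 39.9 later in a region of 4.11 kb. Plekha7, Osbpl8, Hspb11, Tiparp, Mgat2 and 4933407O12Rik made up the leading 8, with regions of 1.75 to 2.41 kb. All 8 except 4933407O12Rik, which had no H3K4me1 peak at Pre_PS, carried H3K4me1 at 6 stages. Trarg1, Dlg4, Ptdss2 and Fgfr4 were among the 5 lowest ranks, with average percentiles of 16.3 to 21.8 and folds of at most 5.52 at any stage. For Dlg4, Ptdss2 and Fgfr4 the gene end at the region was the 3′ end.

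At the edge of the rule, members and regions left out overlapped in width and in fold rank. The members just inside 1 kb lay 993 to 998 bp from the nearest end, at B3gnt3, Nup210, Zic2, Mcl1 and Grik2, and those just outside lay 1002 to 1008 bp away, at Slc38a3, Cdcp2, Mtss1, Rps27l and Mrgbp. Widths were 0.9 to 1.95 kb inside and 1.24 to 2.96 kb outside. The average fold percentile was 48.8 to 93.1 inside and 25.3 to 88.7 outside. The widest regions present at 5 of the 6 stages lay at Mvk (mevalonate kinase, 19.1 kb), Akt1 (a kinase of insulin and growth factor signalling, 14.5 kb), Pold1, Bahcc1 and Evpl. All 5 lacked Pre_PS, and at Mvk, Pold1 and Bahcc1 the nearest gene end was the 3′ end. At Mvk H3K27ac covered 0 kb at Pre_PS and 11.4, 13.2, 16.1, 12.4 and 15.2 kb at ES, MS, LS, OB and EHF, while H3K4me1 covered 4.72 kb at Pre_PS.

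H3K4me1 accompanied H3K27ac at nearly every member. All 8354 members overlapped an H3K4me1 peak at LS and OB, 8352 at ES and at MS, 8350 at EHF and 6816 (81.6%) at Pre_PS. At all 6 stages, 6811 members (81.5%) carried H3K4me1, and a further 1535 (18.4%) carried it at the 5 later stages but not at Pre_PS. No member was without it (0 of 8354; 95% Wilson interval up to 0.0460%). Of the gene-end regions with H3K27ac at 1 to 5 stages, 40.3% had H3K4me1 at all 6 stages and 3.19% at none. The 2754 regions with H3K27ac at all 6 stages that lay farther than 1 kb from a gene end stood nearer to members: 73.7% had H3K4me1 at all 6 stages, 24.2% at the 5 later stages but not at Pre_PS, and 0 of 2754 at no stage (95% Wilson interval up to 0.139%). Since wider regions overlap more, the comparison was repeated in windows of 1 kb on each side of a gene end. Here 7957 of 10676 member ends (74.5%) had H3K4me1 at all 6 stages, against 36.4% of the 8045 gene ends with H3K27ac at 1 to 5 stages and 25.2% of all 43262 gene ends. At the 5 later stages it was 96.8% of member ends, against 71.2% and 37.2%. The shares that include Pre_PS rested in part on weak peaks, since 67.3% of its H3K4me1 peaks had the lowest fold and the weakest p of the list.

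By stage, 75.01% of member ends had an H3K4me1 peak within 1 kb at Pre_PS, 98.5% at ES, 98.1% at MS, 98.8% at LS, 98.7% at OB and 97.8% at EHF. Of the 8045 gene ends with H3K27ac at 1 to 5 stages it was 42.1%, 86.8%, 83.4%, 89.5%, 89.6% and 79.7%. Member ends were higher in 6 of 6 libraries, by 9.07 points at OB to 32.9 points at Pre_PS, and on average by 15.9 points (SD 8.98, n = 6 stages). The exact two-sided sign-flip permutation test gave p = 0.03125, the smallest value that 6 libraries allow, and 0.0781 after Benjamini-Hochberg adjustment over 5 tests. The difference therefore did not pass the adjusted threshold of 0.05. The classes were set by H3K27ac, and both marks covered largely the same bases in members, so the direction was in part set by the rule. The same gene ends were also used in each library. The classes differed in kind of end, which the window does not remove: 4.41% of member regions and 24.8% of the other gene-end regions held a 3′ end and no start. The p-value cannot separate these points from a difference in H3K4me1. With the same number of peaks taken from each list of a mark, the average difference was 3.98 points (p = 0.03125 in the exact test), and with members defined without Pre_PS it was 34.1 points over 5 libraries, for which 0.0625 is the smallest p. Peaks with the lowest fold and the weakest p made up 67.3% of the H3K4me1 list of Pre_PS, against 2.64% to 9.77% at the later stages. Without such peaks in any list, the lowest share over the stages was 57.7% of member ends and 23.2% of the ends at some stages only. Gene ends without H3K27ac had an H3K4me1 peak in 0.791% to 2.52% of cases, so both classes with H3K27ac stood far above them.

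**Figure D2:**
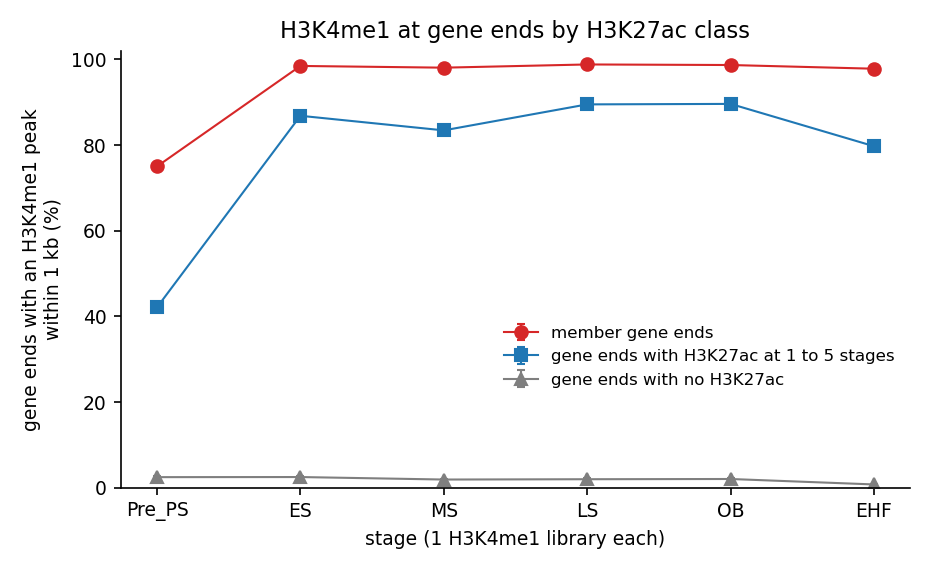
Share of gene ends with an H3K4me1 peak within 1 kb (vertical axis, percent) at each stage (horizontal axis, 1 library each) for member ends, for gene ends with H3K27ac at 1 to 5 stages and for gene ends with none; bars are 95% Wilson intervals of the counts, mostly smaller than the symbols. Member ends lie above the second class at each stage, by 32.9 points at Pre_PS and by 9.07 to 18.1 points later.

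Over member starts, H3K4me1 covered the start more often than the bases 1 to 2 kb away. Within 250 bp of the start its peaks covered 47.4% of bases at Pre_PS and 86.7% to 88.4% at the later stages. At 1 to 2 kb on either side they covered 7.38% at Pre_PS and 14.9% to 16.9% later. The flanks were lower in 6 of 6 libraries, on average by 66.2 points (SD 12.9, written as flank minus centre, -66.2). H3K27ac, which chose the members, fell off likewise. At ES it covered 90.0% of member starts at the start, 5.70% at 2 kb upstream and 13.7% at 2 kb downstream. Members had to lie within 1 kb of a gene end, and both marks covered largely the same bases in them. The direction was thus largely set by the rule, and the values are a description without a p-value. Nearer to the start the H3K4me1 cover fell off gradually and unevenly. From ES on, 39.7% to 43.2% of member starts were still covered 1 kb downstream, against 11.4% to 13.1% at 1 kb upstream. Peak lists show where a mark was called and not its height within a peak, so a dip within a broad peak would not be seen here.

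The weight of members in H3K4me1 as a whole had no clear order over the stages. The share of covered H3K4me1 bases that lay in members was 31.0% at Pre_PS, 31.3% at ES, 34.2% at MS, 31.4% at LS, 31.5% at OB and 38.6% at EHF. EHF was the highest and Pre_PS the lowest, with ES, LS and OB close together. Spearman's rho with stage order was 0.829 (exact permutation p = 0.0583, adjusted 0.0799) and Pearson's r 0.639 (exact permutation p = 0.192, adjusted 0.192). Without Pre_PS and EHF, the ends of the order, r was -0.208, so the relation did not hold without both. With members and order taken over the 5 later stages alone, rho was 0.7 and r 0.624. The value of rho was 0.543 with lists of equal length, 0.0857 with the upper 50% of each list and -0.314 without the weakest peaks.

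From ES on, both marks covered largely the same bases inside members, at the same stage or at another. The Jaccard index (bases with both marks over bases with either) was 0.840 to 0.895 for all pairs of later stages. Its average was 0.866 for the same stage and 0.866 for different stages among these 5. With Pre_PS included, same-stage pairs averaged 0.796 and other pairs 0.745. These values are a description, since H3K27ac chose the members. The pairs with Pre_PS were the low ones: H3K4me1 of Pre_PS shared 0.437 to 0.457 with H3K27ac of any stage, and H3K27ac of Pre_PS 0.554 to 0.573 with H3K4me1 of the later stages. The lower values moved with the fewer covered bases of these lists, whose part in the result was not tested.

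Between the early streak stages (ES and MS) and the later stages (OB and EHF), the covered length of most members differed little, and its direction depended on the scale. Scaled to the covered Mb of each list, H3K27ac of both OB and EHF was above both ES and MS at 1822 members (21.8%; background 15.7% of all merged regions covered at one of these stages) and below at 645 (7.72%; background 9.43%). In unscaled bases, 957 members (11.5%; background 10.5%) were above and 2030 (24.3%; background 15.7%) below. The median ratio of late to early was 1.03 scaled and 0.976 unscaled. H3K4me1 was above at 837 members (10.0%; background 12.4%) and below at 189 (2.26%; background 9.22%) on the scaled measure, and above at 1612 (19.3%; background 14.8%) and below at 1050 (12.6%; background 12.3%) unscaled. The H3K27ac split thus turned around with the scaling, and each stage had 1 library, so no direction is given for the members as a group. Removal of tissue outside the embryo proper was stated for ES and MS and not for OB and EHF. A difference in dissection therefore cannot be told apart from stage in this comparison or in the single members below.

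Single members with the largest scaled differences are given by their covered kb. Each is called by the gene with the nearest end, which was the 3′ end at Numbl, Lamb2, Aspscr1, Med16 and Nr2f6. At Fasn (chr11:120807192-120826588) H3K27ac covered 3.66 kb at Pre_PS, 15.6 at ES, 11.4 at MS, 12.2 at LS, 15.4 at OB and 17.7 at EHF. OB was just below ES in bases and above it per covered Mb (424 against 376 bp per Mb). Numbl, an inhibitor of Notch signalling in neural progenitors, had 0.741 kb at Pre_PS, 2.01 at ES, 2.01 at MS, 5.73 at LS, 4.44 at OB and 4.53 at EHF, with LS, OB and EHF all above the 3 earlier stages. Galr3, a galanin receptor, had 1.08, 3.33, 3.43, 4.56, 5.20 and 5.94 kb in stage order, each stage above the one before. The region at Galr3 held 3 gene ends. Lamb2, Arid3a, Aspscr1, Med16 and Nr2f6 completed the 8 with the largest positive differences, which ran from 59.4 to 110 bp per Mb.

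On the other side, Hsd3b7, an enzyme of bile acid synthesis (chr7:127798895-127803218, 4 gene ends), had 0.714 kb of H3K27ac at Pre_PS, 4.27 at ES, 4.17 at MS, 2.48 at LS, 1.93 at OB and 0.387 at EHF. Its value at EHF was the lowest of all, below Pre_PS. Cln6, a protein of the endoplasmic reticulum linked to lysosomal storage disease, had 0.913, 4.12, 4.25, 2.69, 1.54 and 1.603 kb in stage order while its H3K4me1 had 0, 1.41, 1.39, 2.97, 2.66 and 2.76 kb. In the later pair of stages H3K27ac was shorter there than in the earlier pair, and H3K4me1 longer. Hr, a nuclear receptor corepressor, had 6.78 and 6.61 kb of H3K27ac at ES and MS and 3.735 and 3.77 kb at OB and EHF, with H3K4me1 at 5.35 to 6.90 kb from ES on. Hdac5 (a class II deacetylase), Acaa1b, Plec, Cbx8 and Emc10 were the others of this group of 8, whose differences ran from -99.8 to -65.7 bp per Mb. The nearest gene end was the 3′ end at Hdac5, Acaa1b and Emc10. At Cbx8, a Polycomb subunit, OB was the lowest stage after Pre_PS (6.07 kb), and EHF (10.4 kb) was close to ES (10.3 kb).

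For H3K4me1, the largest positive differences fell on Plec, Lama5, Noc2l, Qrich2, Cracr2b and Dgkz, and the largest negative ones on Mapk8ip2, Fkbp8, Eef2, Gm52429, Celsr2 and Hmga1. The nearest gene end was the 3′ end at Lama5, Qrich2, Dgkz, Mapk8ip2, Celsr2 and Hmga1. At Noc2l H3K4me1 covered 2.15 kb at Pre_PS, 8.60 at ES, 6.35 at MS, 10.1 at LS, 10.2 at OB and 10.1 at EHF, with H3K27ac at 8.75 to 10.1 kb from ES on. At Mapk8ip2, a scaffold of the JNK pathway, H3K4me1 covered 3.17, 5.34, 5.44, 4.75, 3.67 and 2.28 kb in stage order. At Eef2, translation elongation factor 2, EHF alone was low, with 4.10 kb against 8.41 to 8.499 kb at ES to OB. H3K27ac covered 8.35 kb at Eef2 at EHF, within its range of 7.07 to 8.51 kb from ES on. Without replicates none of these differences can be set against the spread between samples.

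**Figure D3:**
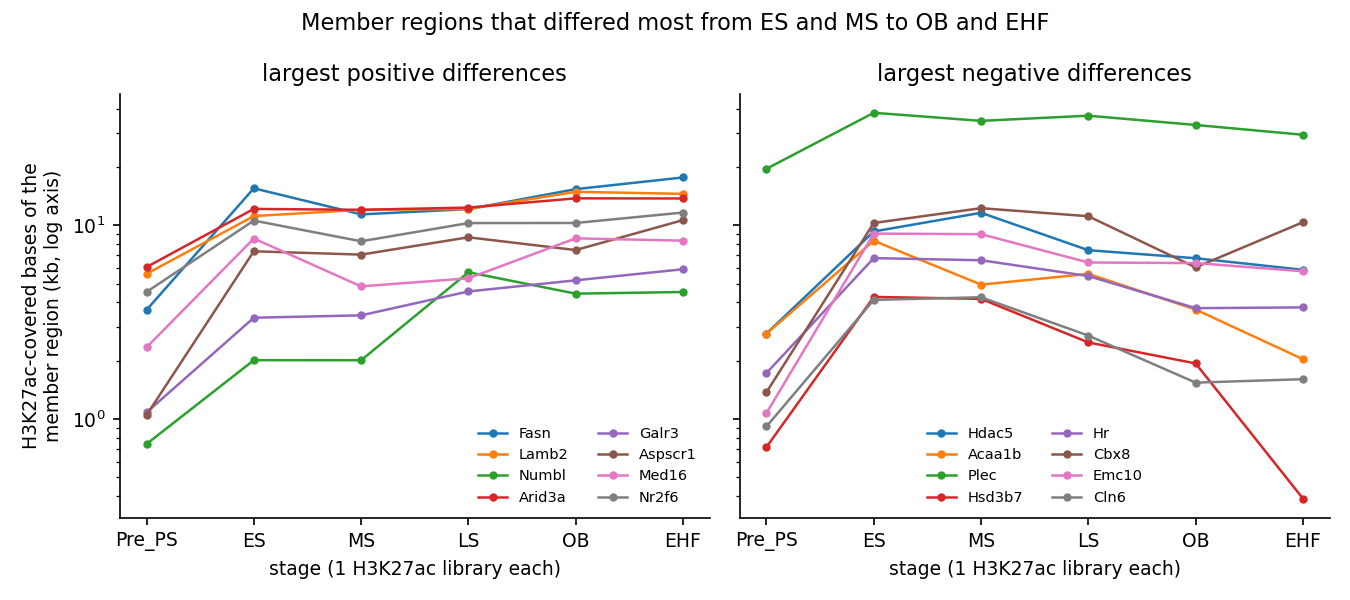
H3K27ac-covered bases (vertical axis, kb, log axis) of the 8 members with the largest positive (left) and the 8 with the largest negative (right) scaled difference (OB and EHF less ES and MS), by stage (horizontal axis, 1 library per point). On the left Pre_PS is the lowest point of every line, and Galr3 goes from 1.08 kb at Pre_PS to 5.94 kb at EHF; on the right Hsd3b7 goes from 4.27 kb at ES to 0.387 kb at EHF and Plec stays at 29.45 kb or above from ES on.

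Members were next described by gene. A gene counts here when either of its outer ends is a member end, and a list is read against 43.3% of all genes. Since Pre_PS decided most memberships, the share of genes with H3K27ac at an end at the 5 later stages is given beside it, against 61.5% of all genes. Lengths are bases covered within the 2 kb window centred on the gene's end, for the end with H3K27ac at the most stages. The median of this length, averaged over the 6 stages, was 662 bp over all genes. No test was run on the lists.

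The enzymes of both marks were themselves mostly member genes. Ep300 and Crebbp, which encode p300 and CBP, both had member starts. H3K27ac covered 1490 bp at the Ep300 start at Pre_PS, 1574 at ES, 1673 at MS, 1633 at LS, 1672 at OB and 1637 at EHF, and 1522, 1716, 1679, 1791, 1731 and 1759 bp at that of Crebbp. These starts were level over all 6 stages, Pre_PS included. All 6 H3K4 methyltransferases, Kmt2a, Kmt2b, Kmt2c, Kmt2d, Setd1a and Setd1b, were member genes, although for Kmt2d the member end was the 3′ end. Both marks covered all 2001 bp of the window at the Kmt2c start in each of the 12 libraries.

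Of the listed subunits of complexes of 1 or more of these methyltransferases, Wdr5, Cxxc1, Men1, Ncoa6 and Kdm6a were member genes. Rbbp5 lacked Pre_PS alone, and Ash2l and Dpy30 had no H3K27ac at an outer end. Dpy30 has another annotated start within 1 kb of a region present at all 6 stages, and the outer end of a RefSeq gene need not be the start in use. Such a start was found for 533 genes without a member end, 349 of them with no H3K27ac at an outer end, Brd3 and Cbx7 among them. Among erasers, Kdm1a, Kdm1b, Kdm5a and Kdm5b were member genes and Kdm5c, on the X, lacked Pre_PS (0 bp, then 898, 1110, 1251, 732 and 1294 bp). Of the class I deacetylases, Hdac1, Hdac2 and Hdac3 were member genes and Hdac8, also on the X, had no peak at either end. Of 14 Polycomb core genes 11 were member genes, with Pcgf1 and Bmi1 lacking Pre_PS.

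Signalling genes of gastrulation stood high among the lists. At the 5 later stages 100% of the genes of the FGF, Nodal and TGF-beta and Wnt lists had H3K27ac at an end, near the 97.8% of translation initiation factors. FGF signalling drives the movement of cells through the streak, and Nodal and Wnt signals set up the streak itself. All 24 FGF pathway genes were member genes (median 1301.3 bp), from the receptors Fgfr1 to Fgfr4 through Grb2, Sos1 and the Ras and Raf genes to Mapk3 and the feedback regulators Spry1, Spry2, Spry4 and Dusp6. The Fgfr1 end had 1343 bp of H3K27ac at Pre_PS and 1218 to 1440 bp later, and the Fgfr2 start 429 bp and 901 to 1203 bp. Fgfr1 was thus as wide at Pre_PS as later and Fgfr2 was not. Of 18 Nodal and TGF-beta genes 16 were member genes (88.9%, median 1370 bp), among them the receptors Acvr1b, Acvr2a and Acvr2b and the mediators Smad2, Smad3 and Smad4. Tgif1 and the inhibitor Lefty1 lacked Pre_PS. Of 23 Wnt genes 20 were member genes (87.0%, median 1287 bp), with Axin1, Axin2 and Dkk1, a scaffold and inhibitors of the pathway, lacking Pre_PS at their outer ends. For Axin2 the end counted was the 3′ end, and another annotated start of Axin2 lies within 1 kb of a region present at all 6 stages.

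Of the lists of regulators of the lineages that arise at gastrulation, 50% to 85.7% of the genes were member genes, against 43.3% of all genes. The 95% Wilson intervals of the endoderm and node list (42.4% to 87.3%) and of the surface ectoderm and amnion list (26.8% to 73.2%) held the share of all genes. H3K27ac at the 5 later stages was found for 92.9% of the streak list, 94.4% of the neural and 82.6% of the mesoderm list. It was found for 92.3% of the endoderm and node list and 78.6% of the surface ectoderm and amnion list. Of 14 primitive streak genes 12 were member genes (85.7%, median 1433 bp), including T (Brachyury), Mixl1, Eomes and Gsc. The T start had 793 bp at Pre_PS, 1579 at ES, 1385 at MS, 1559 at LS, 1585 at OB and 1664 at EHF, and the Mixl1 end 1771, 1506, 1386, 1256, 1344 and 1363 bp. T was thus lowest at Pre_PS and Mixl1 highest. Of the list, Nodal lacked Pre_PS and Cer1 had no peak at either end. Of 18 neural genes 14 were member genes (77.8%, median 1375 bp), Sox1, Sox3, Six3 and Lhx2 among them. Sox1 had 1313 bp at Pre_PS and 1370 to 1631 bp later, whereas Six3 had no covered base in its window at Pre_PS and OB and met the rule through peaks elsewhere in the merged region. Of 23 mesoderm genes 15 were member genes (65.2%, median 1072 bp), including Mesp1, Mesp2, Snai1 and Kdr, with Msgn1 and Tbx6 lacking Pre_PS. Of 13 endoderm and node genes 9 were member genes (69.2%, median 643 bp), including Sox17, Foxa2, Cldn6 and Trh. Hox genes, which pattern the body axis, were member genes in 29 of 39 cases (74.4%, median 989.7 bp). Of 14 genes of surface ectoderm and amnion 7 were member genes (50%, median 919.9 bp). A peak at these ends does not show that the gene was expressed.

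Epiblast genes were split. Of 18 epiblast and pluripotency genes 11 were member genes (61.1%, median 1214 bp). At the start of Pou5f1, the gene of Oct4, H3K27ac covered all 2001 bp at Pre_PS and 1013, 855, 938, 881 and 986 bp from ES to EHF. Pre_PS was the widest stage there, whereas the median over all members was lowest at Pre_PS. Sox2 was covered over all 2001 bp at every stage in both marks, and Dnmt3b over 1390 bp at Pre_PS and 1386 to 1539 bp later. Nanog had 183 bp at ES and 34 bp at OB and none at Pre_PS, MS, LS and EHF within its window. Otx2 lacked Pre_PS, and Zfp42 and Dppa4 had no peak at either end.

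In the lists of trophoblast, blood and visceral endoderm genes most were not member genes, whereas 4 of 6 markers in a smaller trophoblast set were. Of 12 trophoblast genes 3 were member genes (Ascl2, Wnt7b and Peg10), of 12 blood genes 3 (Klf1, Tal1 and Spi1) and of 15 visceral endoderm genes 5 (33.3%). The Wilson intervals of trophoblast and of blood (8.89% to 53.2% each) and of visceral endoderm (15.2% to 58.3%) held the 43.3% of all genes. H3K27ac at the 5 later stages was found for 25% of the trophoblast, 33.3% of the blood and 60% of the visceral endoderm list. Over all genes this share was 61.5%. The globin genes Hbb-bh1 and Hba-x had no H3K27ac peak at an end at any stage, and neither had Afp and Ttr of visceral endoderm. Apoa1 had 1037 bp at ES and 1180 bp at EHF and none at the other stages within its window. Over 6 visceral endoderm markers the summed H3K27ac was 1493 bp at Pre_PS and 1188 to 2910 bp later, and 1188 to 1493 bp of it lay at Amn. Summed over 8 epiblast markers, of which 5 were member genes, it was 7992 bp at Pre_PS and 7391 to 8533 bp later. For 6 trophoblast markers it was 2784 bp and 5548 to 6153 bp (4 member genes), with Cdx2, Hand1 and Tfap2c, which embryonic tissues also use, among those 4. For 4 blood markers it was 38 bp and 359 to 832 bp, and for 6 markers of adult tissue 366 bp and 934 to 1959 bp (1 member gene each), with Alb, Ins2 and Cd3e at 0. Fewer cells of a type and a weaker mark per cell cannot be told apart in these lists.

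Genes of basic cell functions, used by nearly all cells, were far from all member genes, and most of the rest had H3K27ac at each later stage. Over all genes, 43.3% were member genes and 61.5% had H3K27ac at the 5 later stages. Of 78 cytosolic ribosomal protein genes 49 were member genes (62.8%, median 958.5 bp), and 70 (89.7%) had H3K27ac at the 5 later stages. For complex I of the respiratory chain it was 15 of 38 (39.5%) and 35 (92.1%), for small nuclear ribonucleoproteins 12 of 27 (44.4%) and 26 (96.3%), and for the proteasome 19 of 39 (48.7%) and 34 (87.2%). Translation initiation factors stood higher, with 36 of 46 (78.3%) and 45 (97.8%). The Wilson intervals of the member share held 43.3% for complex I (25.6% to 55.3%), small nuclear ribonucleoproteins (27.6% to 62.7%) and the proteasome (33.9% to 63.8%). Those of cytosolic ribosomal proteins (51.7% to 72.7%) and translation initiation factors (64.4% to 87.7%) lay above it. The member counts were 40 of 78 mitochondrial ribosomal proteins, 10 of 18 aminoacyl-tRNA synthetases (mostly mitochondrial), 6 of 13 RNA polymerase II subunits, 14 of 23 TBP-associated factors, 16 of 30 Mediator subunits, 9 of 17 ATP synthase subunits, 5 of 12 replication licensing genes, 10 of 14 subunits of the anaphase-promoting complex and 7 of 9 of the chaperonin TRiC. Of these 9 lists, only the anaphase-promoting complex (45.4% to 88.3%) and TRiC (45.3% to 93.7%) had Wilson intervals above 43.3%. The intervals of the others held it. In each of these 9 lists 83.3% or more had H3K27ac at the 5 later stages. Of 23 glycolysis genes 15 (65.2%) and of 24 cell cycle genes 14 (58.3%) were member genes. The Wilson interval lay above 43.3% for glycolysis (44.9% to 81.2%) and held it for the cell cycle list (38.8% to 75.5%). Polr2a, the largest subunit of RNA polymerase II, was no member gene: it had 0 bp at Pre_PS and 1154, 1173, 1159, 1071 and 1255 bp later. Cdk4, with 0 bp and then 1055 to 1190 bp, was another. The smaller number of Pre_PS peaks moves with these gaps, and its part in them was not tested.

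Genes of chemoreceptors, defensins, keratins and cytochromes P450 were seldom member genes. Of 1110 olfactory receptor genes 2 were member genes (0.180%), of 353 vomeronasal receptor genes 3 (0.850%) and of 42 beta-defensin genes 0 (95% Wilson interval up to 8.38%). Olfr94 had H3K27ac of 771 bp at its start at Pre_PS and 774 to 941 bp later, and H3K4me1 of 534 bp and 776 to 930 bp. Both marks were thus present in its window at each stage. Olfr1419 had at most 176 bp within its window, at its 3′ end. Vmn1r4 and Vmn2r29 had 778 to 916 bp and 858 to 1217 bp in the windows of their starts over the stages. Vmn2r87 had at most 157 bp, at LS, and none at Pre_PS and ES, in the window of its 3′ end. Of these 5 receptor genes, the 3 at starts were thus widely covered and the 2 at 3′ ends were not. These families hold many near copies, and how reads with several matches were placed is not given in the sources used here. Of 108 keratin and keratin-associated genes 7 were member genes (6.48%), of 93 cytochrome P450 genes 9 (9.68%) and of 24 genes of adult tissues 2 (8.33%), Krt10, at its 3′ end, and Sftpc. Histone and Zfp genes, also large families, stood above or near the 43.3% of all genes. Histone genes with H1f, H2ac, H2bc, H3c and H4c symbols, also near copies, were member genes in 42 of 67 cases (62.7%). Of 394 genes named Zfp, most of them zinc finger repressors, 151 were member genes (38.3%) and 245 (62.2%) had H3K27ac at the later stages.

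**Figure D4:**
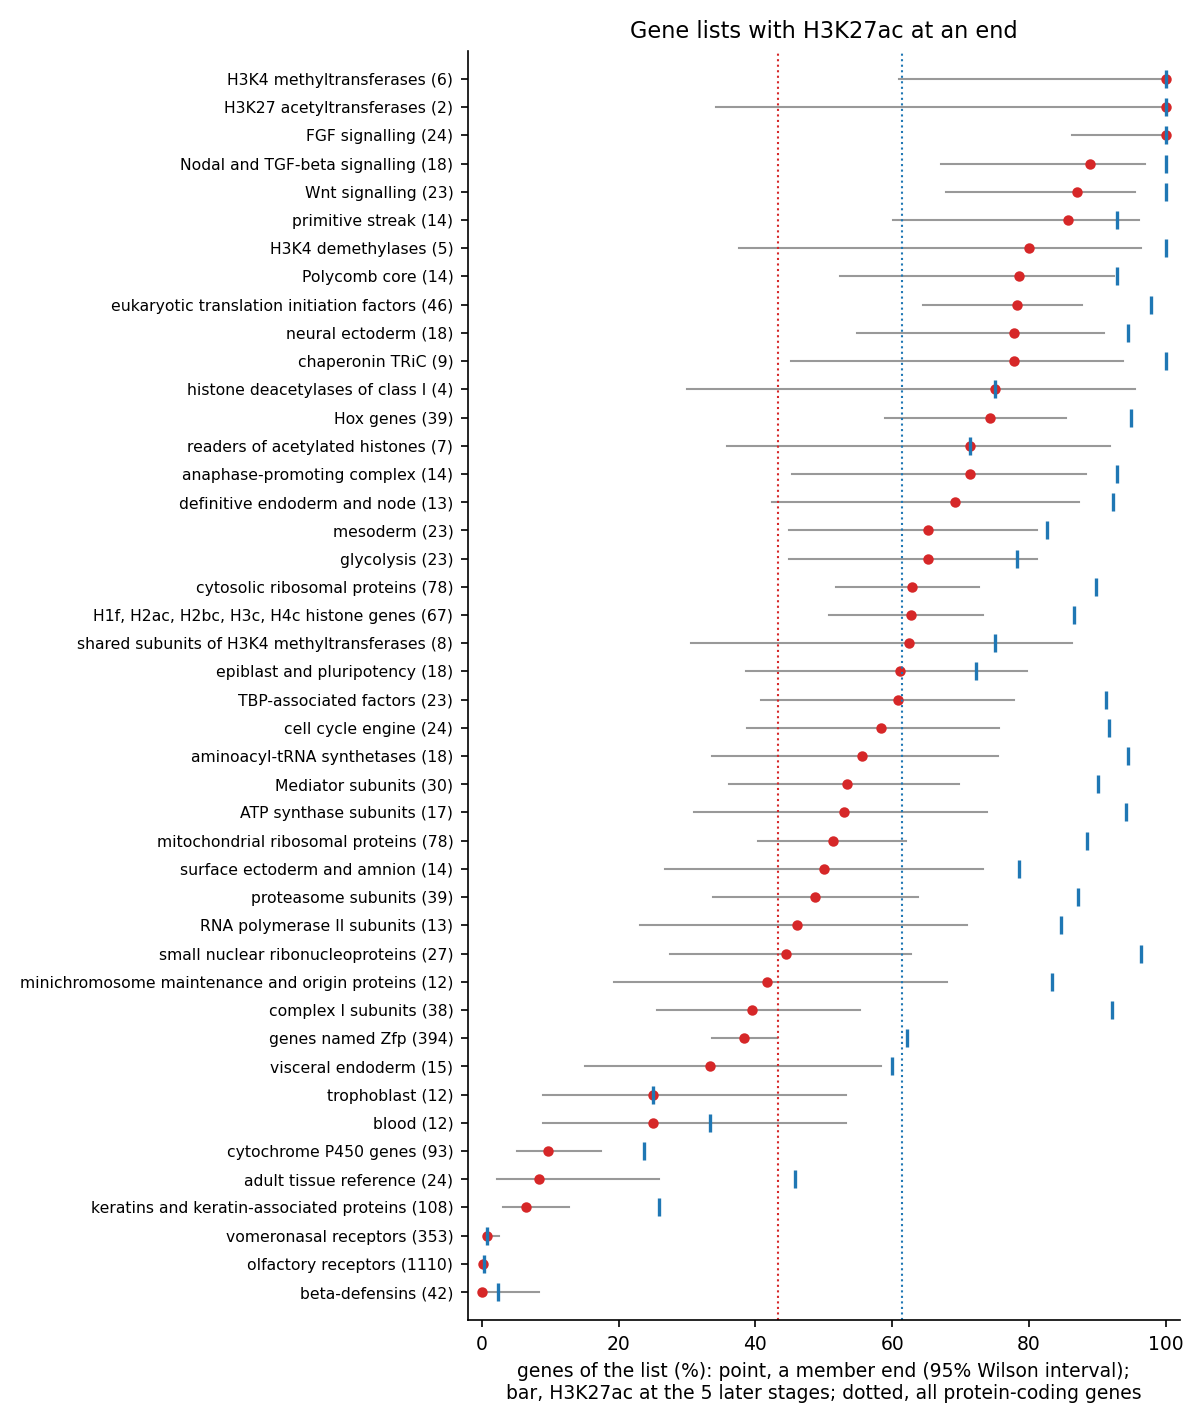
Share of the genes of each list (vertical axis, number of genes in brackets) with a member end (red points, 95% Wilson interval in grey) and with H3K27ac at an end at the 5 later stages (blue bars), in percent (horizontal axis); the dotted lines are all protein-coding genes (43.3% red, 61.5% blue). FGF signalling and the H3K4 methyltransferases stand at 100%, complex I has its point at 39.5% and its bar at 92.1%, and the olfactory receptors lie at 0.180%.

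Member promoters were rich in CpG. Of 6884 member promoters with a sequence (250 bases before to 50 after the start, 1 per gene, none from chromosome 18), 5693 had a CpG content of at least 0.6, which is 82.7% (95% Wilson interval 81.8% to 83.6%). The share was 53.6% of 4106 promoters with H3K27ac at 1 to 5 stages, 3.81% of 5853 promoters without it and 49.0% of all 17274. The median CpG content was 0.813 in members, 0.628 with H3K27ac at 1 to 5 stages and 0.172 without it, and the median GC content 64.7%, 57.3% and 45.3%. At the stricter threshold of 0.75 the member share was 62.0%. The intervals cover counting error only.

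Within members, the H3K27ac windows widened with CpG content. Members under 0.4 (437 promoters) had a median of 589 bp at Pre_PS and 941 to 1045 bp later within 1 kb of the start. Those of 0.8 and over (3633) had 995 bp and 1298 to 1369 bp. The median merged region, however, was 2.00 kb in the first class and 1.62 kb in the second, so that CpG-poor members lay in wider regions with less of it at the start. Members with no CpG in the 300 bases were Gm5785, Aldoa (an enzyme of glycolysis, in a region of 4.28 kb), LOC108167320, Gp5, F2rl3 and Ripply1 (on the X, in a region of 0.744 kb).

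Motifs were searched on both strands of the 300 bases, as a description. The GC box GGGCGG occurred in 74.7% of member promoters, 51.8% of those at 1 to 5 stages, 8.92% of those without H3K27ac and 46.9% of all. Its matches in members had their median 64 bases before the start. TATAAA went the other way, with 5.74% of members, 9.69%, 25.7% and 13.4% in the same order. Restricted to the sense strand at 40 to 19 bases before the start, where a TATA box works, it was found in 69 members (1.00%), against 5.31% of promoters without H3K27ac and 2.82% of all. The 8 of those 69 with the highest fold rank were Rnf10, Lor, Mat2a, Cdkn2aip, Fscn1, Igfbp4, Ppia and Sephs2, with a CpG content of 0.0624 at Lor (loricrin, of the skin barrier) and 0.721 to 1.24 at the others.

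Other motifs that contain CpG were several times more frequent in promoters with H3K27ac than in those without, with smaller gaps between members and other H3K27ac promoters. The ETS motif CCGGAAGT occurred in 7.64% of members, 7.74% of promoters at 1 to 5 stages, 0.991% of those without H3K27ac and 5.34% of all. The NRF1 motif GCGCATGC occurred in 5.40%, 5.09%, 0.495% and 3.64%, and the CRE TGACGTCA in 3.25%, 3.04%, 0.786% and 2.36%. The ZBTB33-type element TCTCGCGA, with 2.51%, 1.63%, 0.222% and 1.55%, and the E-box CACGTG, with 10.9%, 9.33%, 3.64% and 8.01%, had the larger gaps between members and promoters at 1 to 5 stages, and the Wilson intervals for TCTCGCGA did not overlap (2.17% to 2.91% and 1.29% to 2.07%).

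Of the motifs without CpG, only YY1, AAGATGGC, was more frequent in members than in promoters without H3K27ac, at 4.29%, 4.14%, 1.38% and 3.23%, and its matches in members had their median 5 bases after the start. The CCAAT box ATTGG occurred in 36.3% of members, 40.8% of promoters at 1 to 5 stages, 43.0% of those without H3K27ac and 39.6% of all. AP-1, TGACTCA, occurred in 2.54%, 4.07%, 7.47% and 4.60%, and the octamer of POU factors, ATGCAAAT, in 1.18%, 1.56%, 2.55% and 1.74%. The ZNF143 motif ACTACAAT was at 0.799% to 1.07% in each class, with overlapping intervals. The classes differ in base composition, which alone changes how often letters occur, and no correction for it was made.

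**Figure D5:**
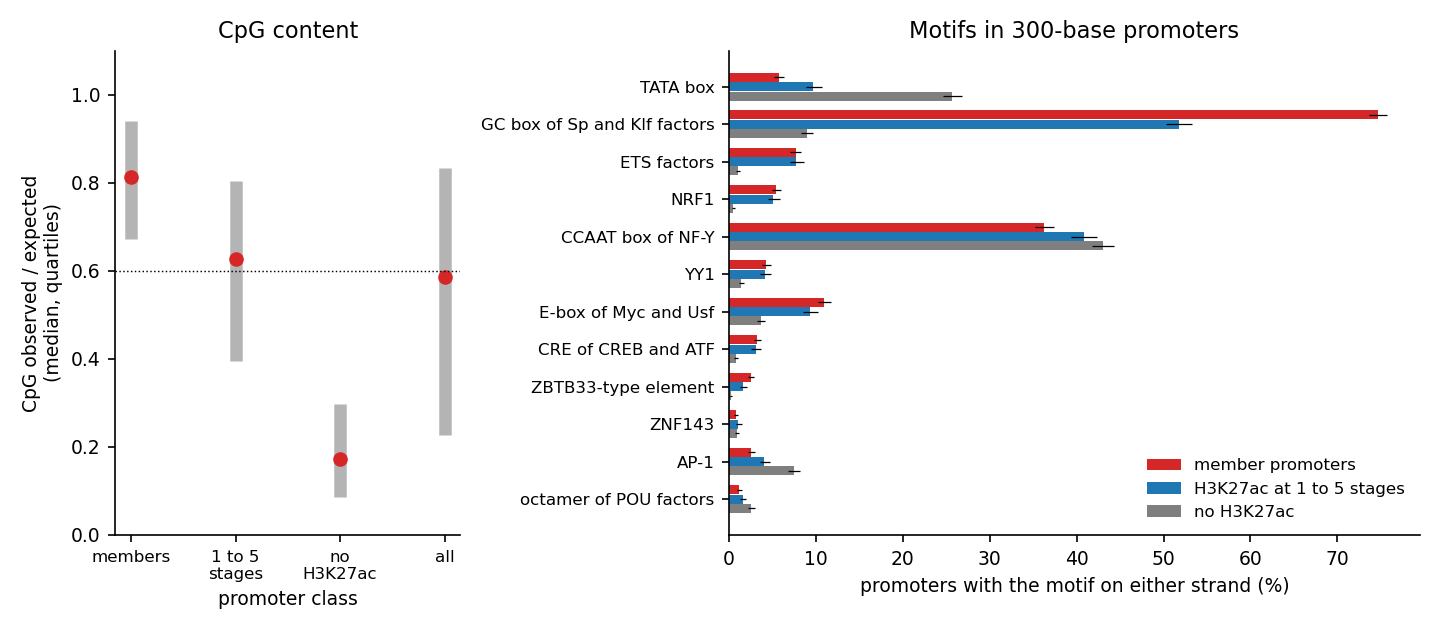
Left: CpG content (vertical axis, observed over expected; red point median, grey bar quartiles, dotted line the threshold of 0.6) of promoters in each H3K27ac class. Right: share of 300-base promoters that hold each motif on either strand (horizontal axis, percent; bars with 95% Wilson intervals) in member promoters, promoters with H3K27ac at 1 to 5 stages and promoters without H3K27ac. Member medians stand at 0.813 against 0.172 without H3K27ac, and the GC box (74.7% against 8.92%) and the TATA box (5.74% against 25.7%) differ in opposite directions.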

How the data were processed

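The deposited files are 12 broad peak lists, 1 per stage and mark, from CoBATCH of single cells. Bowtie2, Picard, MACS2, deepTools and mm10 are named in the submitters' processing notes, without versions or settings, and the number of reads behind a list was not known. The deposited lists give each peak a fold enrichment (a ratio), a −log10 p and a −log10 q, and a score that was not used; each is the authors' own value for the peak. Gene ends, strands and promoter sequences are from RefSeq for GRCm38.p6: 21631 protein-coding genes, 17274 with a promoter and strand. Broad peaks merge neighbouring sites, so covered length depends on the calling. Python 3.11.15, numpy 2.4.6, pandas 2.3.3, scipy 1.17.1 and matplotlib 3.10.9 were used on chromosomes 1 to 19 and X. A peak counted as present with 1 bp of overlap. Exact tests ran over the 6 H3K4me1 libraries (64 sign patterns or 720 stage orders), adjusted by Benjamini-Hochberg over 5 tests. Those on the overlap of both marks and on centre and flank depended on the choice by H3K27ac and are given as values only. The test of member against other gene ends depended on it in part. The code was checked on simulated data.

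Genes given with values were the 10 widest regions, the 8 highest and 5 lowest by average fold percentile, the 8 (H3K27ac) or 6 (H3K4me1) largest differences each way between the earlier (ES, MS) and later (OB, EHF) stages, the regions at the edges of the rule, and up to 4 member and 3 other genes per list in list order. Other list genes were named for their role, and those with no CpG or a TATA box were named after their values were seen. Some genes that the rule names are not reported here. The members and lists were chosen with earlier results of these data known. Alternatives changed the distance, merging, overlap, peak strength, number of peaks, stages, kind of end, CpG threshold and scaling.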

Additional observations from a re-analysis of the deposited data

How the results depend on the processing

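Of 62 recomputed values over 11 settings, 50 kept their direction and side of the threshold or, with no test, their size. The number of members was 8066 with a distance of 500 bp and 8681 with 2 kb, 6333 with gene starts only, 7966 without the weakest peaks, 6693 with lists of a mark trimmed to equal length, 4942 with the upper 50% of each list and 12831 without Pre_PS. The share of CpG-rich member promoters was 62.0% at a threshold of 0.75, 85.3% with the upper 50% of each list, 84.5% with lists of equal length and 76.6% without Pre_PS. The relation of H3K4me1 bases in members to stage order turned around without the weakest peaks, to a rho of -0.314 and an r of -0.495, and its cause was not tested; 67.3% of the Pre_PS H3K4me1 peaks were of that kind. The late and early counts without scaling (957, 2030, 1612 and 1050) are an alternative chosen after seeing the data. The H3K4me1 difference between member and other gene ends and that between centre and flank kept their direction under each alternative run for them.

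No paired analysis was possible because each stage and mark had 1 library and no replicate to pair; the sign-flip tests used differences within each library. With 1 library a stage, depth, cell number, dissection and stage cannot be told apart. Gene ends are the outer ends of RefSeq genes, which are not always the start in use.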
